A study of Mus musculus with 8 samples.

Results

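The genes described here are the integrin and laminin subunits of the adult mouse heart. They were taken by name: every listed symbol beginning with Itga or Itgb, apart from the Itgb1bp genes and Itgbl1, and every Lama, Lamb or Lamc symbol followed by a single digit. The rule found 39 of the 32285 genes listed. Of these, 18 encode integrin α subunits, 9 integrin β subunits and 11 laminin chains. The remaining gene, Itgb3bp, was caught by its name; it encodes a centromere protein and no integrin subunit. In named nuclei 36 of the 39 had at least 100 UMIs (unique molecular identifiers, each counting 1 captured RNA molecule) and were analysed by cell type. The other 3 were Itgax with 85 UMIs, Lama1 with 14 and Itgb2l with 3.

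The study sequenced RNA from single nuclei of adult mouse hearts in 10x Genomics droplets. Female and male mice were either non-transgenic (nTg) or transgenic (Tg), the latter expressing CCNA2 (cyclin A2, a driver of cell division) constitutively. The labels name neither strain, age, the promoter of the transgene nor how many hearts made up a library. Of 8 libraries, 5 were used. The labels call 1 of them nTg female, 2 Tg female and 2 Tg male. Each of the remaining 3 nTg matrices was a copy, identical in every byte, of the Tg matrix with the same sex and number (female 2, male 1, male 2). Their columns matched in number the barcode lists of the Tg libraries and not their own, so each was counted once, under the Tg label, and the nTg label was left out. Nothing in the labels says whether 2 libraries of a group came from separate animals, so p-values measure only the spread between these libraries.

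The 5 libraries held between 25045167 and 38593706 UMIs in 8062 to 10642 barcodes, and 5768 to 8817 nuclei were kept in each. Pairs of libraries shared 14 to 28 barcodes. In cardiomyocytes Ccna2, the gene of the transgene, stood at 448 CPM (counts per 1000000 UMIs of that type and library) in the library labelled nTg female 1. It was at 0.533 CPM in the library labelled Tg female 1 and at 144 to 844 in the other three. This goes against 2 labels, so libraries are called by their labels and no direction by genotype is drawn from them. Clustering gave 25 clusters and 13 named cell types, of which 8 had at least 50 nuclei in every library. The smallest of these was smooth muscle, with 512 nuclei in all, and the largest was the fibroblast, with 12598. The listed markers were highest in their own type for 7 of 7 cardiomyocyte, 8 of 8 fibroblast, 6 of 6 pericyte, 5 of 5 smooth muscle and 8 of 8 macrophage markers. The same held for 5 of 6 endocardial, 5 of 8 endothelial and 6 of 7 lymphatic endothelial markers.

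Laminins are basement membrane proteins built as trimers of one α, one β and one γ chain, and a trimer is named by the numbers of its chains. Integrins are cell surface receptors made of one α and one β subunit, and several of them bind laminin, while others bind collagen, fibronectin or proteins on neighbouring cells. In the heart the laminins surround cardiomyocytes and vessel walls, and integrins couple the cytoskeleton to them. Levels below are in CPM. Means carry the SD over the 5 libraries, and lists of 5 values run in the order of the nTg female library, the Tg females 1 and 2, and the Tg males 1 and 2. Levels are compared between cell types and not between genes, because they are not corrected for gene length.

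Promoter stretches are shown for 4 members, chosen after their levels and motif matches had been seen: Lama2 (highest in fibroblasts), Itga8 and Itga10 (both highest in smooth muscle and alike across types) and Itgam (highest in macrophages). Each is the 250 bases before the annotated start, from RefSeq (GRCm38.p6), read 5′ to 3′ on the strand of the gene. Capitals mark a CArG box in Lama2, a MEF2 site in Itga10 and the PU.1 core GAGGAA, on either strand, in Itgam.
Lama2: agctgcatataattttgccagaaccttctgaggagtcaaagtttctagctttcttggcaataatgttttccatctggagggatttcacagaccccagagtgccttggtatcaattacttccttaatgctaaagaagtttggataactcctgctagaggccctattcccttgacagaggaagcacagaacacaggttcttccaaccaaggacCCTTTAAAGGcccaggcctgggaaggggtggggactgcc
Itga8: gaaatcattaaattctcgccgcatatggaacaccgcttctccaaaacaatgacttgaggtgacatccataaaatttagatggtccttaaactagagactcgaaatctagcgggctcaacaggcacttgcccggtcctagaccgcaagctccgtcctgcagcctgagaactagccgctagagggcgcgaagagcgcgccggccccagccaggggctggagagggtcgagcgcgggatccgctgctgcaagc
Itga10: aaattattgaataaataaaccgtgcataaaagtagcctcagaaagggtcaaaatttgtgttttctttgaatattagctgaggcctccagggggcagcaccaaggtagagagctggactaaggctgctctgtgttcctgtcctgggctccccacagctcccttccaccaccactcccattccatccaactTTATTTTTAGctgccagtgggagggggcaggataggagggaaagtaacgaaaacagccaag
Itgam: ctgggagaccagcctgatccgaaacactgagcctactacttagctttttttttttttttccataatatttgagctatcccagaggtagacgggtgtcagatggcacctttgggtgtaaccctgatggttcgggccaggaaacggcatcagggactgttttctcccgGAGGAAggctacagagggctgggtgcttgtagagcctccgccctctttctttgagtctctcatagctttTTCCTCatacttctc
The windows lie at chr10:27616943-27617192 on the minus strand, chr2:12301945-12302194 on the minus strand, chr3:96645334-96645583 on the plus strand and chr7:128062390-128062639 on the plus strand. The Lama2 window lies within the longer GENCODE model of that gene but in none of its exons. The Itga8 window lies in an exon of E030013I19Rik, a non-coding RNA gene on the opposite strand. That RNA had 63 UMIs in smooth muscle (37.2 ± 9.71 CPM), where Itga8 was highest, against 2 UMIs in fibroblasts, 2 in pericytes and 0 in the other five types.

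RefSeq entries were matched for 25 of the 39 members, giving 28 windows. A CArG box, which serum response factor binds, was in 2 of the 28, those of Lama2 and of one of the 2 Itgb6 starts, against 1.47% of all 32851 promoter windows. The MEF2 site, the motif of a family of muscle transcription factors, was in 1 of 28 windows, that of Itga10, against 2.92% of all. The PU.1 core GAGGAA, the motif of a myeloid factor, was in 14 of 28 windows against 23.3% of all. Of the 4 windows of members highest in macrophages it was in 1, that of Itgam, and none of the 7 windows of members highest in smooth muscle held a CArG box. These matches are letters in a window of fixed length.

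Of the 36 members, 24 (66.7%) had their highest level in the same cell type in all 5 libraries. Among all genes with at least 100 UMIs the same was true of 6415 of 17401 (36.9%). The largest groups were highest in fibroblasts, with 11 members, in smooth muscle, with 7, and in macrophages, with 6. All 6 macrophage members and both cardiomyocyte and both endothelial members kept that type in every library, as did 6 of the 11 fibroblast and 5 of the 7 smooth muscle members.

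**Figure D1:**
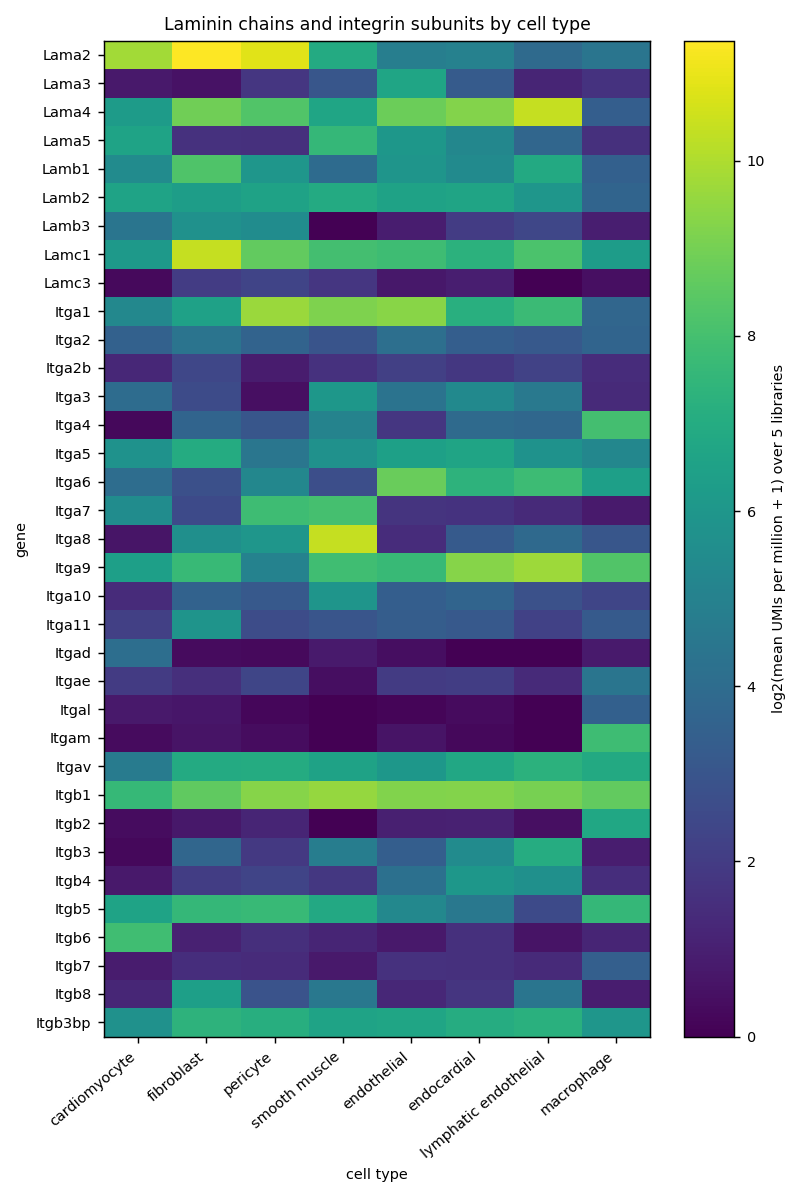
Mean level of members with at least 100 UMIs (rows) in the 8 cell types (columns), as log2 of the mean CPM over 5 libraries plus 1. Itgb1, Lamb2 and Itgav were found in every type, while Itgb6, Itga8, Itgam, Itgb2 and Lama3 each stood out in one; rows are not comparable with each other, because levels are not per length.

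The laminin α chains divided the cell types among themselves. Lama2, the chain of muscle basement membranes (chr10:26980036-27619758), stood at 2648, 2939, 1866, 2981 and 2781 CPM in fibroblasts. In pericytes it was 1914, 2241, 1379, 1936 and 1898, and in cardiomyocytes 967, 1179, 701, 727 and 884. The fibroblast value exceeded the pericyte value in each of the 5 libraries, although the 2 ranges overlapped. In endothelial, endocardial and lymphatic endothelial nuclei and in macrophages Lama2 was at 14.3 to 30.8 CPM, between 0.542% and 1.17% of the fibroblast level. Markers of fibroblasts stood in those 4 types at a median of 0.585% to 14.9% of their level in fibroblasts. In each of the 4, Lama2 was below the lowest library median of these markers, as in the endocardium with 1.17% against 3.25%. In smooth muscle Lama2 was at 123 CPM, 4.65% of the fibroblast level, and the fibroblast markers were at 2.64% to 12.3%. Where the Lama2 and marker counts in these types came from was not tested.

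Lama4, the α chain of vessel walls (chr10:38965515-39110188), had its highest level elsewhere. It was 1323, 1590, 1265, 1151 and 1242 CPM in lymphatic endothelium, above the endocardial range of 439 to 827 in all 5 libraries. Endothelial nuclei had 446 ± 120, fibroblasts 474 ± 61.9 and pericytes 310 ± 37.9, and the endothelial and fibroblast ranges overlapped. Cardiomyocytes had 75.1 ± 27.7 and macrophages 9.67 ± 4.30.

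Lama5 (chr2:180176373-180225859) was highest in smooth muscle, at 197, 178, 240, 184 and 150 CPM. Cardiomyocytes followed with 95.3 ± 20.5, below every smooth muscle value, and endothelial nuclei with 62.9. Fibroblasts and pericytes, the 2 types richest in Lama2, had 2.06 and 1.94. Lama3, known from the basement membranes of skin and other epithelia, was at 92.9, 122, 98.6, 83.0 and 107 CPM in endothelial nuclei and at 8.67 ± 6.30 in the endocardium, with no overlap. Lama1 was close to absent, with 14 UMIs in all.

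Among the β and γ chains, Lamc1, the γ chain of most trimers (chr1:153218922-153332786), was at 1249, 1338, 1046, 1407 and 1659 CPM in fibroblasts. The next type, the pericyte, had 402 ± 73.4, so the ranges were well apart, and the lowest, the cardiomyocyte, had 71.1. Lamb1 was likewise highest in fibroblasts, at 299 ± 56.5, with lymphatic endothelium second at 118 ± 2.99. Lamb2, the other common β chain, was spread evenly. In 7 of the 8 types it lay between 62.3 and 121 CPM, and macrophages had 11.5.

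Lamb3, a β chain known from epithelial laminin, was not found beside Lama3. It was at 53.6 ± 13.4 in fibroblasts, 44.7 ± 11 in pericytes and under 1 CPM in endothelial nuclei. Its gene overlaps Hsd11b1, which encodes a steroid dehydrogenase, on the opposite strand, and whether the counts were kept to one strand is not given in the sources used here. Across the 25 clusters the 2 genes moved together (Pearson r = 0.847 of log2 CPM plus 1, n = 25 clusters from the same libraries). Pooled over the libraries, Lamb3 was at 20.1 CPM and Hsd11b1 at 10.9 in cardiomyocytes, and at 53.0 and 186 in fibroblasts. The part of Hsd11b1 in the Lamb3 counts was not tested, so Lamb3 values are uncertain. Lamc3 never passed 6.78 CPM in any library of its highest type, the pericyte.

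**Figure D2:**
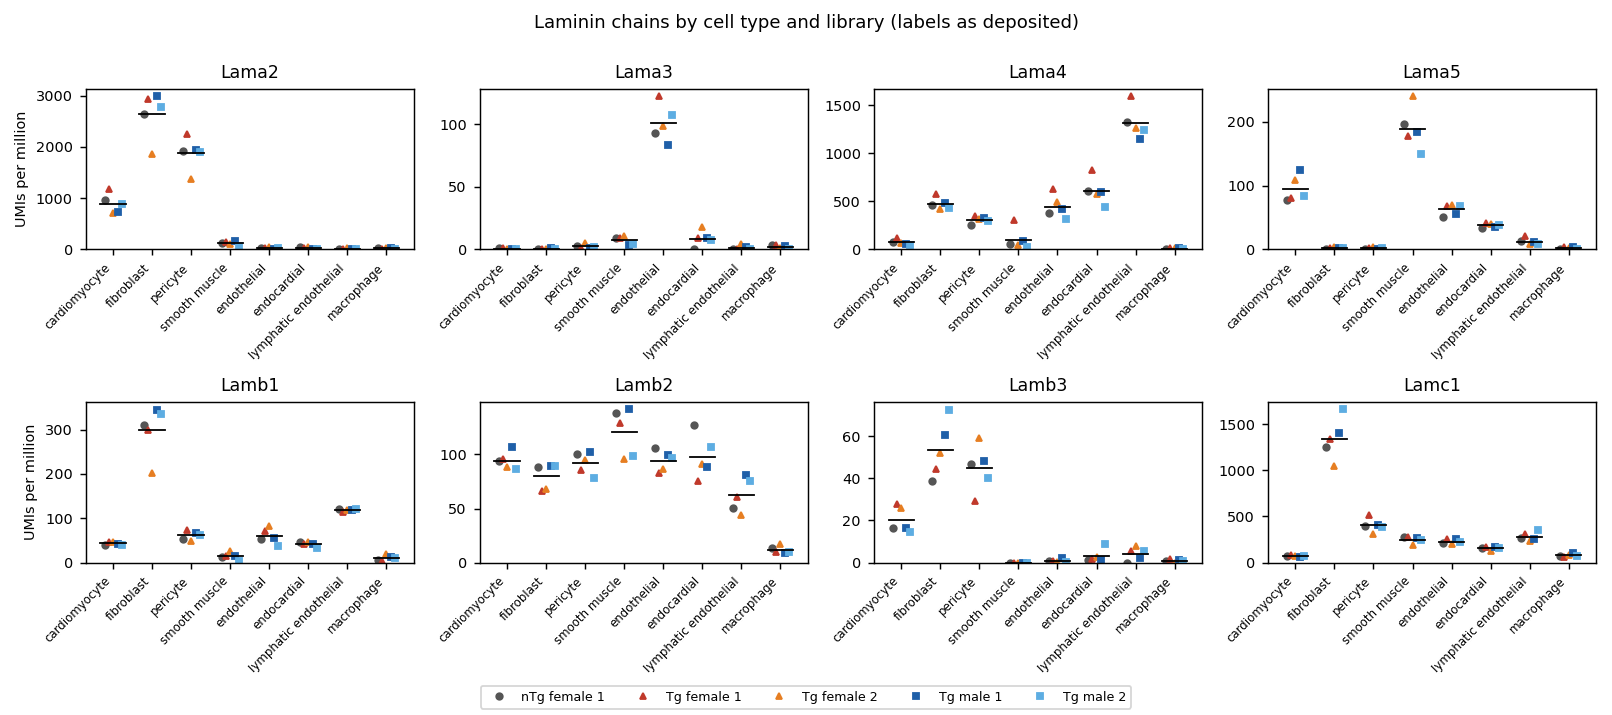
CPM of 8 laminin chains (panels) in 8 cell types, with one point for each of the 5 libraries and a line at their mean. Lama2 is high in fibroblasts, pericytes and cardiomyocytes, Lama4 in lymphatic endothelium, Lama5 in smooth muscle and Lama3 in endothelial nuclei.

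Itgb1, the partner of most α subunits, was found throughout, from 192 ± 31.5 CPM in cardiomyocytes to 765 ± 170 in smooth muscle. Smooth muscle and pericyte (631 ± 70.3) ranges overlapped, although smooth muscle was the higher in each library. The α subunits paired with it differed sharply between cell types. Itga8, a receptor subunit for nephronectin and fibronectin (chr2:12106632-12301922), was at 1278, 2038, 821, 962 and 1439 CPM in smooth muscle. The next 2 types were the pericyte, at 61.7 ± 15.8, and the fibroblast, at 49.5 ± 10.9, and cardiomyocytes had 0.552. Its level in smooth muscle was 21.2 times that in pericytes. Npnt, which encodes nephronectin, was also highest in smooth muscle, at 104 ± 56.5 CPM against 4.35 in the next type.

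Itga10, a collagen receptor subunit, was the member whose levels across the 8 types were most like those of Itga8 (Pearson r = 0.85 of log2 CPM plus 1, n = 8 types). It was at 101, 42.0, 80.0, 48.5 and 23.7 CPM in smooth muscle, above the endocardial range of 5.76 to 20.2. Itga7, a laminin receptor subunit of muscle, did not tell smooth muscle and pericytes apart, at 255 ± 55.7 and 230 ± 22.5 CPM with overlapping ranges. In cardiomyocytes it was at 42.2, 49.8, 51.5, 38.9 and 43.5. Itga1, another collagen receptor subunit, was highest in pericytes, at 816 ± 86.6, followed by endothelial nuclei at 648 ± 65.2 and smooth muscle at 571 ± 76.9, with overlapping ranges. Itga11, the collagen receptor subunit of fibroblasts, was at 58.0 ± 15.8 there and at most 12.6 in any library of the next type.

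Itgb6 was the most cell-type-bound β subunit. It activates TGF-β as part of αvβ6 and is best known from epithelia (chr2:60598292-60722643). Cardiomyocytes had 186, 331, 315, 169 and 191 CPM, from 11885 UMIs, and no other of the 8 types had a mean above 1.99. Cardiomyocyte markers stood at 1.46% to 6.88% of their cardiomyocyte level in the other types. Itgav, the only α partner of Itgb6, was lowest in cardiomyocytes, at 25.4 CPM. Across the 8 types the 2 genes had r = -0.87. That value sets cardiomyocytes against types with nearly no Itgb6, so it shows no trend among those types. Itgav was at 159 ± 20.6 in lymphatic endothelium and 126 ± 21.1 in pericytes, with overlapping ranges.

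The other β partners of Itgav were split between types. Itgb3 was at 139, 145, 131, 149 and 92.3 CPM in lymphatic endothelium, above the endocardial range of 17.8 to 70.7. Itgb5 was at 201 ± 14.1 in pericytes, 191 ± 42.0 in macrophages and 189 in fibroblasts, which did not differ beyond their spread, and at 4.86 in lymphatic endothelium. Itgb8, which also activates TGF-β with αv, was at 84.1 ± 14.1 in fibroblasts. It was at 0 to 73.5 in smooth muscle, where the single high library was the one labelled Tg female 1. The same library was the highest in smooth muscle for Lama4, at 303 CPM against 23.7 to 83.1 in the other four, and for Itga9, at 474 against 64.0 to 304. That library held 186 smooth muscle nuclei and each of the others 77 to 88. Itga5, the fibronectin receptor subunit, was at 127 ± 25.3 in fibroblasts and 98.2 ± 15.2 in the endocardium, with overlapping ranges.

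In the vessel lining, Itga6, a laminin receptor subunit, was at 427, 539, 400, 479 and 358 CPM in endothelial nuclei, above the lymphatic range of 176 to 266. Itga9, a tenascin receptor subunit needed for lymphatic valves (chr9:118606690-118901003), was at 823 ± 95.9 in lymphatic endothelium and 635 ± 92.9 in the endocardium, with overlapping ranges. Pericytes had 31.9. Itgb4, which pairs with Itga6 alone, was at 64.0 ± 18.4 in the endocardium and 51.4 ± 12.4 in lymphatic endothelium, also overlapping. Itga3, a further laminin receptor subunit, was at 64.4 ± 20.8 in smooth muscle and 41.2 ± 6.76 in the endocardium, and at 0.378 in pericytes.

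Among the 8 larger types the leukocyte integrins were highest in macrophages, apart from Itgad, and lymphocytes are given further on. Itgam, the α subunit of complement receptor 3 (chr7:128062640-128118491), was at 252, 266, 211, 204 and 208 CPM there and at most 0.524 on average in the other seven types. Itgb2, its partner, was at 115, 117, 84.0, 106 and 124 CPM and at most 1.23 in the other seven, and the 2 genes had r = 0.99 across the 8 types. Itga4, which pairs with Itgb1 or Itgb7 to bind VCAM-1 and other ligands, was at 251 ± 25.2 in macrophages and 32.6 ± 6.63 in smooth muscle. Its ligand gene Vcam1 was highest in the endocardium, at 551 ± 132. Itgae was at 20.5 ± 6.84, Itgal at 10.3 ± 8.32 and Itgb7 at 9.75 ± 3.06 in macrophages.

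A few members shared their locus with another gene or had no clear type. Itgad, a leukocyte subunit by name, was at 16.3 ± 3.77 CPM in cardiomyocytes and at 0.806 in macrophages pooled over libraries. Its gene overlaps Cox6a2, which encodes a heart muscle subunit of cytochrome oxidase, on the opposite strand. Cox6a2 was at 163 in pooled cardiomyocytes and between 79.3 and 142 in the other 7 types, so reads of Itgad cannot be told from reads of Cox6a2 without strand. In pooled endothelial nuclei Cox6a2 was at 142 and Itgad at 0.265, and across the 25 clusters r was 0.348. The part of Cox6a2 in the Itgad counts was not tested. Itga2, a collagen receptor subunit, was at 19.7 ± 1.85 in fibroblasts and 16.5 ± 5.33 in endothelial nuclei, and Itga2b, the platelet subunit, at 4.38 ± 1.10 in fibroblasts. Itgb3bp was at 163 ± 25.9 in fibroblasts and 146 ± 28.7 in lymphatic endothelium, with overlapping ranges.

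Other members also have a gene on the opposite strand, and without strand their reads cannot be told apart. Across the 25 clusters, described as for Lamb3, r was 0.77 for Itga4 and Cerkl, 0.821 for Itga7 and Mettl7b, 0.721 for Itgae and Haspin, and 0.776 and -0.568 for Itgb3bp with Efcab7 and Pgm1. The partner was the lower of the 2 where the member was highest. Cerkl was at 17.3 CPM in pooled macrophages against 251 for Itga4. Mettl7b was at 5.53 in pooled smooth muscle against 242 for Itga7. Haspin, at 9.68 against 21.3 for Itgae in pooled macrophages, was the closest.

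**Figure D3:**
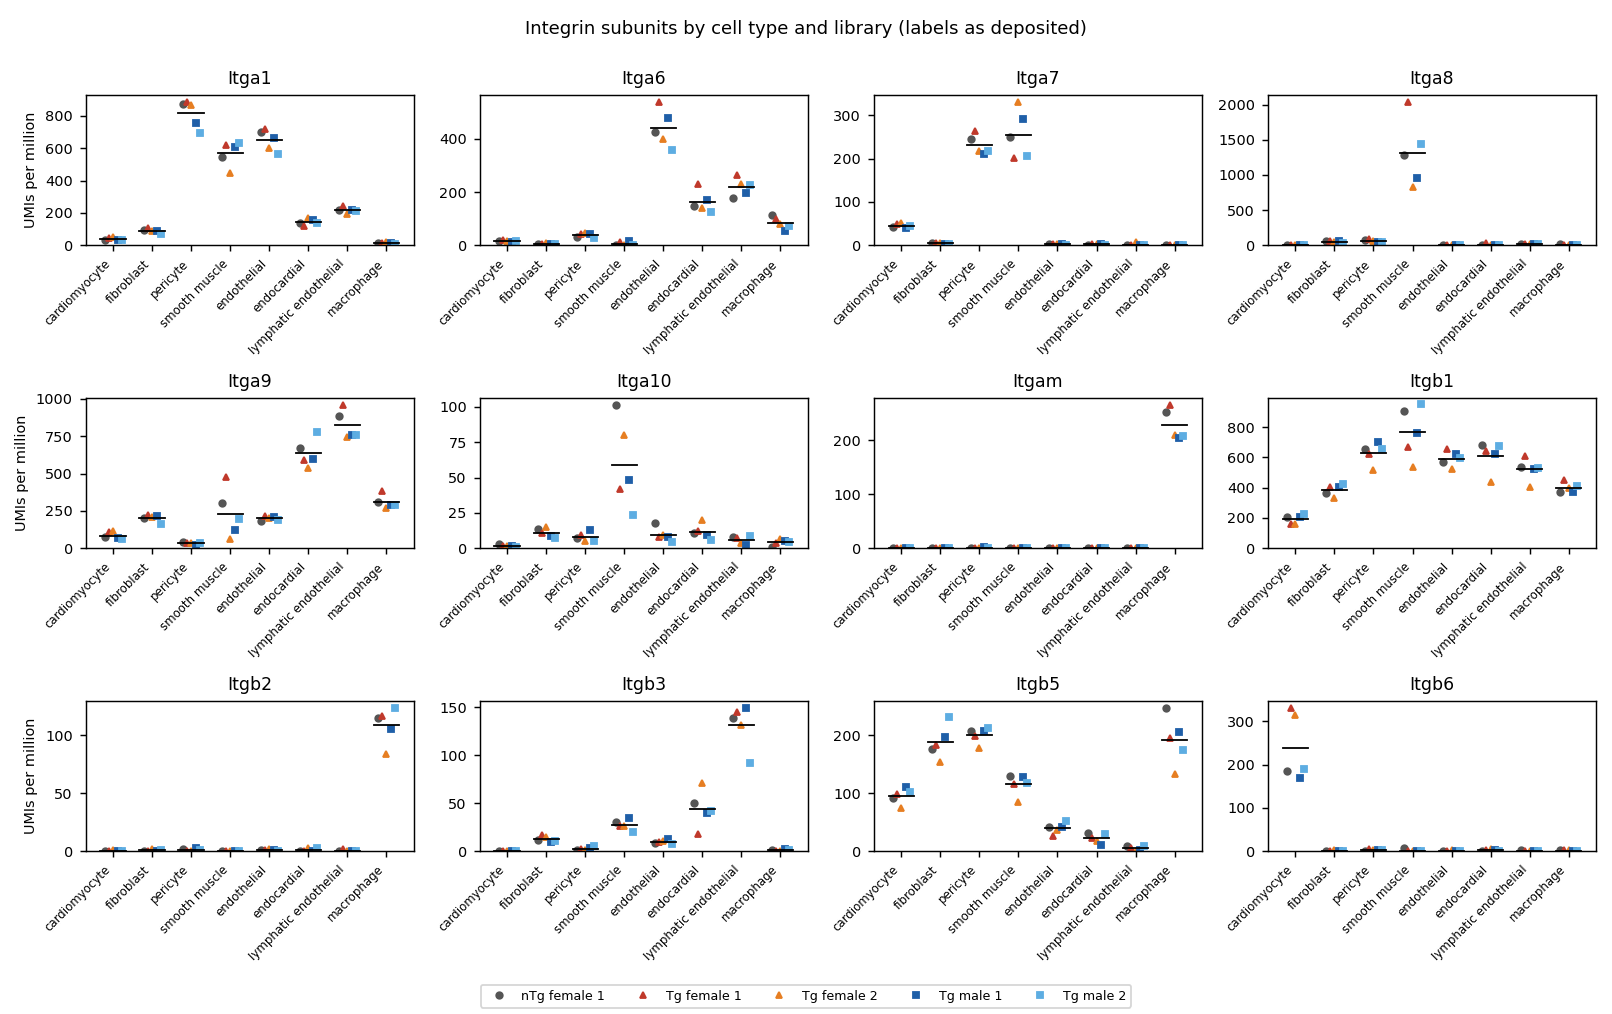
CPM of 12 integrin subunits (panels) in 8 cell types, with one point for each library and a line at their mean. Itga8 and Itga10 are high in smooth muscle, Itgb6 in cardiomyocytes, Itgam and Itgb2 in macrophages, Itga9 and Itgb3 in lymphatic endothelium, and Itgb1 in all types.

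Cell types with few nuclei were pooled over the libraries, and their 95% exact Poisson intervals cover counting error only. The 126 T or NK nuclei had Itga4 at 758 CPM (664 to 862), Itgal at 243 (191 to 305), Itgb2 at 197 (150 to 254), Itgb7 at 184 (139 to 239) and Itga2 at 161 (119 to 213). The 71 B nuclei had Itga4 at 590 (488 to 707) and Itgb7 at 141 (93.8 to 204). The 178 Schwann nuclei had Lama2 at 949 (867 to 1038), Itgb8 at 180 (145 to 221), Itgb4 at 164 (131 to 204) and Itga6 at 141 (110 to 178). The 104 mesothelial nuclei, which line the heart surface, had Itga3 at 112 (81.8 to 151), Lama5 at 89.5 (62.4 to 124) and Lama3 at 79.3 (53.9 to 112). All lymphocyte intervals given here lay above the means of those genes in all 8 larger types. So did those of Itgb4 and Itgb8 in Schwann nuclei and of Itga3 in mesothelial nuclei. The intervals of Lama2 and Itga6 in Schwann nuclei and of Lama5 and Lama3 in mesothelial nuclei did not. Lamb3, uncertain as said above, was at 151 CPM in B and 82.1 in T or NK nuclei against 53.0 in pooled fibroblasts. Hsd11b1 was at 353 and 233 in the same lymphocytes.

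The pairings were then counted from 24 known integrin heterodimers and 14 laminin trimers. A complex was counted in a cell type when each of its subunits had at least 10 CPM in every library. By RNA, 18 of 24 heterodimers and 8 of 14 trimers were found in at least 1 type, in 105 combinations of complex and type. The heterodimers α5β1, α9β1 and αvβ1 were found in all 8 types. Some were found in a single type: α10β1 in smooth muscle, α11β1 in fibroblasts, αMβ2 in macrophages and αvβ6 in cardiomyocytes. α7β1 was in cardiomyocytes, pericytes and smooth muscle, and α6β4 in the 3 endothelial types. Smooth muscle had the most heterodimers, 11, and macrophages the fewest, 7.

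Of the laminins, the α3 trimers α3β1γ1 and α3β2γ1 were found in endothelial nuclei and no other type. The α2 trimers were found in fibroblasts, pericytes and cardiomyocytes among others, and α5β1γ1 in cardiomyocytes, endocardium and endothelium. Macrophages held no trimer. When each subunit also had to exceed what the markers of its highest type showed in the receiving type, 95 of the 105 combinations were left. The endocardium then went from 6 trimers to 0 on account of Lamc1. Lamc1 there (156 CPM, 11.7% of the fibroblast level) did not exceed the fibroblast markers (3.25% to 14.9%) in every library. Lama2, also highest in fibroblasts, stood in the endocardium at 1.17% of its fibroblast level, below these markers. How much of the endocardial Lamc1 came from fibroblasts was not tested. Endothelial trimers went from 8 to 6, losing the 2 with Lama2, and the other losses were α2β2γ1 in smooth muscle and α5β1 in pericytes. RNA of both subunits does not show that the protein complex was made.

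Subunits of one complex followed each other across the 8 types to very different degrees. The pairs with the highest r were Itgam and Itgb2 (0.99), Itgal and Itgb2 (0.957) and Itgae and Itgb7 (0.9). All of these genes were highest in macrophages and low elsewhere, so each r mostly sets macrophages against the other types. Itga6 and Itgb4 had 0.727. Lama4 and Lamb1 had 0.764 and Lamb1 and Lamc1 0.753. Lama5 ran opposite to both, at -0.317 with Lamb1 and -0.387 with Lamc1, but had 0.556 with Lamb2, and Lama3 had -0.594 with Lamb3. All these are over the same 5 libraries and 8 types.

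Within cell types, clusters were compared because the members had been left out of the genes used for clustering. A member is named where its level in the highest cluster was at least 20 CPM and at least 3 times that in the lowest in every library. There were 7 such members among the 4 endothelial clusters and 3 among the 5 fibroblast clusters. The rule was not run over all genes, so these counts do not show a trait particular to the members. Lama3 was at 395, 484, 375, 372 and 377 CPM in the endothelial cluster led by Gja5 and Sema3g, genes of arterial endothelium. It was at 155 ± 32.1 in the cluster led by Btnl9 and at 14.7 ± 5.96 and 17.3 ± 4.48 in those led by Lhx6 and Car4.

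The Gja5 cluster was also highest in Itgb4, at 68.0 ± 17.9 CPM against 3.81 ± 2.28 in the Car4 cluster, and in Itga3, at 55.8 ± 4.98 against 4.73 ± 5.65 in the Btnl9 cluster. Itgb3 was at 24.6 ± 6.60 against 1.5 ± 1.0. The reverse held for Itga6, at 149 ± 15.3 in the Gja5 cluster and 581 ± 104 in the Car4 cluster, and for Lamb1, at 21.0 ± 4.74 and 94.0 ± 24.7. Itga9 was at 337 ± 44.0 and 321 ± 40.6 in the Lhx6 and Gja5 clusters and at 68.0 ± 19.6 in the Btnl9 cluster. The cluster with the most Itgb4 was thus the one with the least Itga6, its partner.

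**Figure D4:**
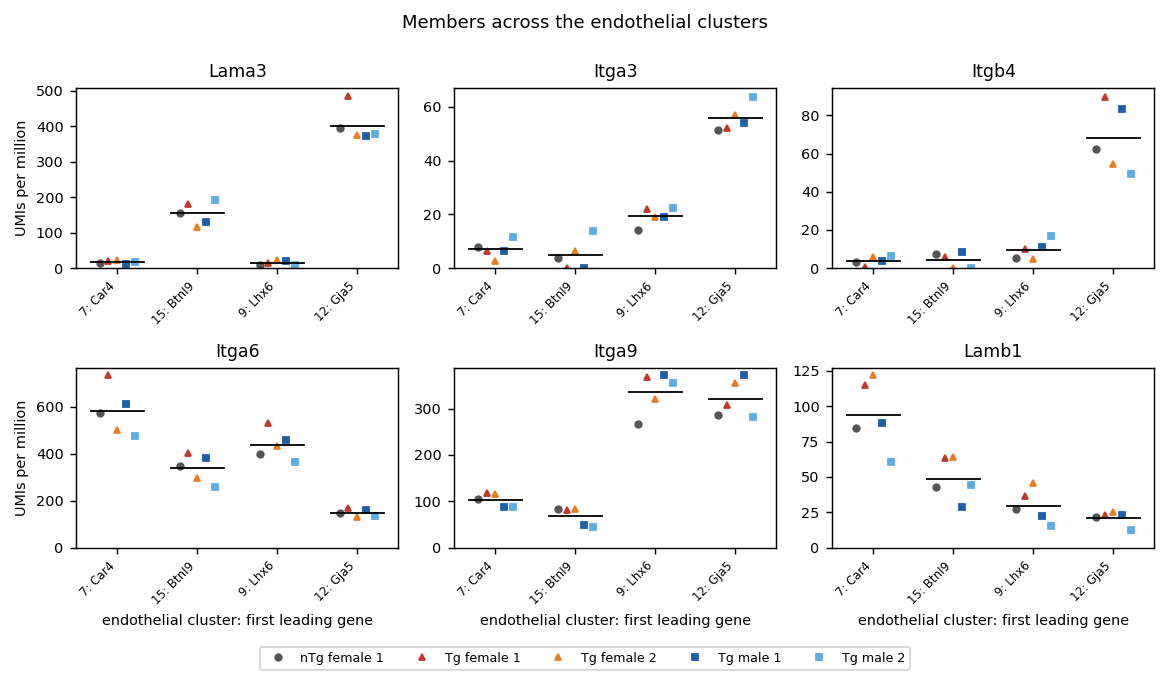
CPM of 6 members in the 4 endothelial clusters, each named by its number and first leading gene, with one point per library and a line at the mean. Lama3, Itga3 and Itgb4 are highest in the Gja5 cluster, where Itga6 and Lamb1 are lowest.

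In fibroblasts, Lamb1 was at 361 ± 42.5 CPM in the cluster led by Kcnip1 and 77.7 ± 19.4 in the cluster led by Dkk3 and Cilp. Lamb3, with the reservation on Hsd11b1 above, was at 109 ± 23.2 and 9.26 ± 3.46 in the same 2 clusters. Itga8 was highest in the Dkk3 cluster, at 87.5 ± 16.6, and lowest in that led by Gfpt2, at 17.4 ± 5.43. Among macrophages, a cluster of 131 nuclei led by Gpr141, Ccr2 and H2-Ab1, genes of monocyte-derived and antigen-presenting cells, was too small for the same rule. It had Itgb7 at 77.1 to 162 CPM in the 5 libraries against 2.42 to 3.15 in the large macrophage cluster, and Itga4 at 324 to 809 against 206 to 247.

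Other genes of the same pathway were read from 4 lists. Of 12 basement membrane partners of laminin, 4 were highest in endothelial nuclei, among them Hspg2 (perlecan, 508 ± 42.4 CPM), and Nid1, which bridges laminin to collagen IV, was highest in fibroblasts (790 ± 119). Of 16 other laminin receptors and their partners, 7 were highest in cardiomyocytes, including Dag1 (dystroglycan, 375 ± 41.7). Of the other 19 integrin ligands found by name, 5 were highest in the endocardium, Fn1 (fibronectin, 336 ± 128) and Vcam1 among them. Of 25 cytoplasmic adaptors, 5 each were highest in endothelial nuclei, pericytes and smooth muscle and 4 in macrophages. Fermt3, the kindlin of blood cells, was at 184 ± 23.0 in macrophages and 5.73 in the next type. Itgb1bp2 (melusin), a muscle protein that binds the β1 tail, was at 266 ± 42.5 in cardiomyocytes and 10.1 in the next type.

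Sex was compared within the Tg label, 2 female against 2 male libraries, in each of the 8 types, with edgeR's quasi-likelihood test and Benjamini-Hochberg adjustment over all genes of the type. None of 167 tests of members passed an adjusted p of 0.05, and 20 had an unadjusted p below 0.05. Over all genes the same test called 181 of 85832 (0.211%), and 7.89% had an unadjusted p below 0.05. DESeq2 called 1 member, Itgb6 in cardiomyocytes, against 0.668% of all genes. Ccna2 in cardiomyocytes was at 0.533 and 844 CPM in the female libraries and at 238 and 144 in the male. The libraries thus also differed in Ccna2, most widely within the female arm, and the male values lay between the female ones. The part of Ccna2 in the differences was not tested. With 2 libraries an arm, a missed threshold does not show that levels were alike.

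Itgb6 in cardiomyocytes stood at 331 and 315 CPM in Tg females and at 169 and 191 in Tg males (labels as deposited), with no overlap. The log2 difference was 0.81 (SE 0.17), with an edgeR adjusted p of 0.403 and a DESeq2 adjusted p of 0.0208. Without Tg female 1 the log2 difference of Itgb6 was 0.74, without Tg female 2 it was 0.86 and without Tg male 2 it was 0.90. The fit without Tg male 1 is not given here. Each of these fits leaves 1 library in an arm and assumes that it varies like the libraries of the other arm, so the fits are not independent support. The library labelled nTg female 1 had 186, on the side of the males. Itga9 in cardiomyocytes was at 105 and 114 against 68.8 and 58.4 CPM, a log2 difference of 0.75 (SE 0.16, edgeR adjusted p = 0.403). In the endocardium it ran the other way without passing, at 589 and 540 against 597 and 779. The 2 differences stood 1.13 apart on the log2 scale (edgeR adjusted p = 0.0380), and that fit called 0.358% of all genes. It was 1 of 11 such tests of members over 10 pairs of types, chosen because the values ran opposite ways, and the only one to pass. The 10 fits together called 0.4% of all genes.

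Of 146 combinations of member and type with at least 10 CPM in the higher arm, 56 (38.4%) had arms that did not overlap, against 38.4% over all genes. The female libraries were above in 36 and below in 20, against 21.6% and 16.8% of all genes. The largest difference with the females above was Lama2 in the endocardium, at 35.5 and 45.4 CPM against 14.2 and 13 (log2 difference 1.46, SE 0.39, edgeR adjusted p = 0.257). Markers of fibroblasts moved with it: their median in the endocardium was 8.31% and 14.9% of the fibroblast level in the female libraries and 3.32% and 3.25% in the male. Their part in the Lama2 difference was not tested. In endothelial nuclei Lamb1 was at 70.6 and 83.1 against 55.0 and 38.4 CPM (0.64, SE 0.21, edgeR adjusted p = 0.354), and Itgb5 was at 25.3 and 36.4 against 41.1 and 51.3.

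In fibroblasts Itga11 was at 76.3 and 73.9 CPM in the female libraries and 44.6 and 49.8 in the male (log2 difference 0.58, SE 0.16, edgeR adjusted p = 0.237). Over all 10691 fibroblast genes with at least 10 CPM in the higher arm, the females were above in 3077 and below in 1478. Of the 21 members they were above in 4 and below in 7. Among the latter, chosen after their values were seen, were Lamb1 at 299 and 203 CPM against 345 and 335, Lamb2 at 66.6 and 67.9 against 89.4 and 89.6, and Lamb3 at 44.4 and 52.2 against 60.4 and 72.6. Their edgeR adjusted p values were 0.497, 0.291 and 0.314. In cardiomyocytes Lama4 was at 121 and 71.3 against 58.4 and 49.2, and Itgb1 at 158 and 160 against 208 and 227. In pericytes Itga8 was at 85.4 and 60.7 against 47.5 and 47.4, and Itgb1 at 625 and 515 against 703 and 659. Itga5 in the endocardium was at 75.7 and 90.9 against 112 and 111. In the other three types the largest rise and fall without overlap were Itgb4 and Lamb2 in lymphatic endothelium, Itgax and Itgb3bp in macrophages, and Itgav and Itgb1 in smooth muscle, with edgeR adjusted p between 0.721 and 0.998. In smooth muscle Lama4 had a larger log2 difference, 1.84 (SE 0.64, edgeR adjusted p = 0.735), but its arms overlapped, at 303 and 42.7 CPM against 83.1 and 23.7.

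**Figure D5:**
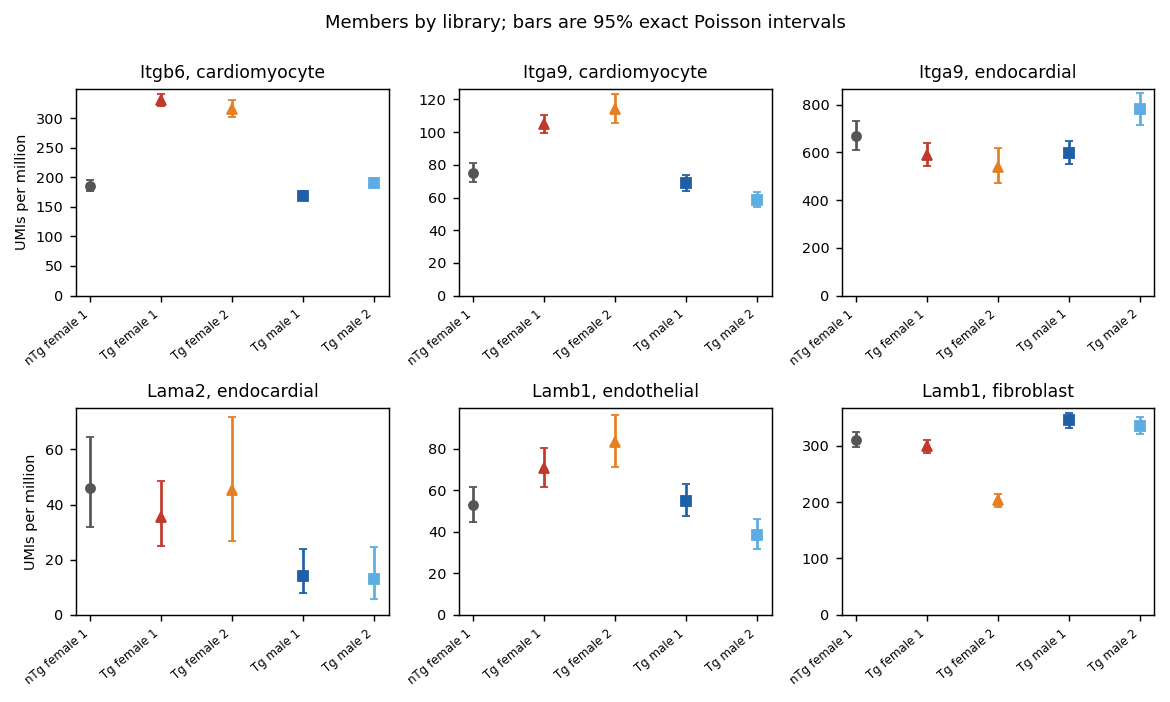
CPM of 6 combinations of member and cell type in each library, with 95% exact Poisson intervals that cover counting error only. Itgb6 and Itga9 in cardiomyocytes are higher in both libraries labelled Tg female than in both labelled Tg male, and nTg female 1 lies nearer the male libraries in both; Lamb1 is higher in females in endothelial nuclei and lower in fibroblasts.

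The pathway lists gave few calls of their own for sex. Of all 4 lists in 8 types, edgeR called Ccn2 in the endocardium and Tns1 in lymphatic endothelium, both lower in the female libraries. Between 8 and 23 genes of a list were tested in a type. Over all genes edgeR called 181 of 85832 (0.211%), of which 138 were also lower in the female libraries. The 2 calls and their direction are therefore not read as a trait of the lists. The same-sex contrast by label had 1 library on one side and therefore no test. The library labelled nTg female 1 was at least 2-fold outside both libraries labelled Tg female in 4 of 164 combinations of member and type (2.44%), against 4.38% over all genes. All 4 were lower and rested on few UMIs: Lama3 in the endocardium, Itgb8 and Itga2 in smooth muscle with 0 UMIs each, and Lama4 in macrophages with 6. The interval of Lama3 allowed up to 5.0 CPM, against 9.34 and 17.7 in the libraries labelled Tg female. Ccna2 goes against the labels of 2 of these 3 libraries, so these values are not a difference by genotype.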

How the data were processed

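The deposited matrices hold UMI counts per gene and barcode, as whole numbers; per the file headers they come from Cell Ranger 7.0.0, and per the submitters' processing notes the build is mm10. The counting of introns and strand is not given in the sources used here. Barcodes with at least 200 genes and under 5% mitochondrial UMIs were kept, and called doublets were removed with scrublet in scanpy 1.11.5 (7.71% to 12.1% per library). In Tg female 2 the caller failed at 0.0429%, so that library took the median threshold of the other four. Nuclei were clustered on 2000 variable genes and 30 principal components (Leiden resolution 1) without the members, Ccna2 and sex-linked genes. Clusters were named from listed markers. Leading genes had to be in 25% of nuclei, a minimum raised from 10% after the clusters had been seen. Counts were summed per library and type. Sums were tested with edgeR 4.0.16, with TMM scaling, on the 4 Tg libraries, and DESeq2 1.42.0 was an alternative. The test was tried on simulated data. Gene coordinates are from GENCODE (GRCm38), in which all 39 members matched.

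Members and lists were chosen with earlier results of these data known. All members with 100 UMIs are named apart from 1, which is not reported here. For sex, the members called and the largest rise and fall without overlap per type are named, with the same exception, and Itgb6 and Itga9 were added after their values were seen.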

Additional observations from a re-analysis of the deposited data

Results flagged for a closer look

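The difference between female and male libraries labelled Tg went opposite ways for Itga9 in cardiomyocytes and in the endocardium. The 2 log2 differences stood 1.13 apart, and edgeR's quasi-likelihood test of that difference, over 14818 genes, gave an adjusted p of 0.0380. The same test called 53 genes (0.358%). In cardiomyocytes both female libraries were higher, at 105 and 114 CPM against 68.8 and 58.4, and in the endocardium both were lower, at 589 and 540 against 597 and 779. The endocardial values of 589 and 597 nearly met. Taken alone, neither difference passed, with edgeR adjusted p values of 0.403 in cardiomyocytes and 0.879 in the endocardium. This pair of types was 1 of 10 tested, and they were chosen because the values ran opposite ways, which the adjusted p does not cover. The other 10 tests of members, among them Lamb3 in cardiomyocytes against fibroblasts (1.34, adjusted p = 0.0888) and Lamb1 in endothelial nuclei against fibroblasts (1.20, adjusted p = 0.0801), did not pass.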

How the results depend on the processing

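For sex, 0 of 167 member tests passed in edgeR (0.211% of all genes). DESeq2 called 1 of 167 (0.668% of all genes), and edgeR with no filter on low counts 1 of 285 (1.14%), Lama4 in smooth muscle. Leaving out 1 library called between 0 and 8, each time with 1 library in an arm that is assumed to vary like the other arm. Leaving out Tg female 1 gave 7 of 175 (3.52% of all genes), including Itgb6, Itga9 and Itgae in cardiomyocytes and Lamb1 and Lama2 in fibroblasts. Leaving out Tg female 2 gave 8 of 184 (1.54%), including Itgb6 and Lama4 in cardiomyocytes and Lama4 in endothelial nuclei and smooth muscle. Leaving out Tg male 1 gave 1 of 179 (0.712%) and Tg male 2 gave 0 of 189 (0.444%). A fit with the replicate number as a block called 0 members. Deviations of same-numbered libraries from their arm means were correlated over genes at -0.0409 to 0.129 in the cell types. With 2 libraries an arm these deviations mirror each other, so the second pair repeats the first. That is too little to show whether the numbers pair the libraries, and the labels do not say that they do. The block moved the count over all genes from 181 to 781. The 5-library fits and the fit without TMM called 0 members. The 16 named sex differences kept their direction in all 160 refits. They had been chosen for arms that did not overlap, so refits of the same libraries could hardly reverse them.

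The 2-fold count for the library labelled nTg female 1 was 4 of 164 against both Tg female libraries (4.38% of all genes) and 2 of 161 against all 4 Tg libraries (1.6%). It was 14 of 160 without Tg female 2 (8.97%) and 15 of 167 without Tg female 1 (15.8%). With TMM scaling it was 5 of 163 (4.31%). The count of members with one highest type (24) ranged from 18, by share of nuclei in thinned counts, to 28. The 105 combinations of complex and type ranged from 88 at a minimum of 20 CPM to 124 at 5 CPM. The version of the endothelial type without its Car4 cluster, and the rule on marker levels, were chosen after seeing the data and gave 106 and 95 combinations. Smooth muscle had 77 to 186 nuclei per library, which limits what low counts there can show.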
